A study of Homo sapiens with 12 samples.

Results

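VGF, FIBCD1, KLHL5, NEK7, EFR3A and RDX are 6 genes outside the stress, histone and p53 gene sets whose transcripts lay on opposite sides of the control when GPD1L was lowered and when it was raised in SW480, a cell line from a human colon adenocarcinoma. They were picked by symbol, for this pattern, from 12203 annotated genes listed in both of the authors' expression tables. VGF and FIBCD1 were higher with GPD1L knockdown and lower with its overexpression, and KLHL5, NEK7, EFR3A and RDX the reverse. The 12 libraries came from 4 groups of 3: SW480 with a short hairpin RNA against GPD1L (shGPD1L) and its hairpin control (shNC), and cells made to overexpress GPD1L (OE) beside their own control, labelled Vector. All 4 are described as stably transfected; each manipulation was made against a single control line, and whether the lines are clones, and whether the 3 libraries of a group are separate cultures, is not given in the sources used here. P-values therefore measure the spread between libraries, which may be technical. In bulk RNA, fewer expressing cells and less RNA per cell cannot be told apart.

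GPD1L is a relative of the cytosolic glycerol-3-phosphate dehydrogenase, the enzyme that links glycolytic dihydroxyacetone phosphate to glycerol-3-phosphate. The 6 genes belong to no common pathway. VGF encodes a secreted precursor of the granin type that is stored in dense-core granules and cut into neuropeptides, and it is best known from neurons and neuroendocrine cells. FIBCD1 is a membrane receptor with a fibrinogen-type domain that binds acetylated compounds such as chitin, and is made by intestinal epithelium. RDX encodes radixin, which with ezrin and moesin (the ERM proteins) ties membrane proteins to cortical actin. EFR3A anchors the lipid kinase PI4KA at the plasma membrane, where it makes phosphatidylinositol 4-phosphate. NEK7 is a kinase of mitosis that also binds the inflammasome sensor NLRP3. KLHL5 is a BTB-kelch protein of the kind that brings substrates to the ubiquitin ligase CUL3.

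The genes with opposite directions differed in base composition, and the start of their coding sequences is shown for that reason. The first 120 coding bases of 5 of them, 5′ to 3′ from the start codon of the principal GENCODE 29 transcript, follow with G and C in capitals.
VGF: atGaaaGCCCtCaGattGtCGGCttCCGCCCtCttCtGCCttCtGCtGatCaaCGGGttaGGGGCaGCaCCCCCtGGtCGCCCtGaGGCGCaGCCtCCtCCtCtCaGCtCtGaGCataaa
FIBCD1: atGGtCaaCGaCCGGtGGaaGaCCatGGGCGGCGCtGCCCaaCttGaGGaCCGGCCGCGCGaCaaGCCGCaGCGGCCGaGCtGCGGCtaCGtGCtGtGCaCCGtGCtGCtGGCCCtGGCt
KLHL5: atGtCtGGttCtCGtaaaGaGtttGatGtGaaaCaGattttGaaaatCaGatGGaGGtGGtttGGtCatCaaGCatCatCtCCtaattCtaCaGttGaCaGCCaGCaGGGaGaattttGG
NEK7: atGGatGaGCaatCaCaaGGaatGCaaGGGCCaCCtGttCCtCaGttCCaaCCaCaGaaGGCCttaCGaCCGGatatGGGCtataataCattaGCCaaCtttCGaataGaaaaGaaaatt
RDX: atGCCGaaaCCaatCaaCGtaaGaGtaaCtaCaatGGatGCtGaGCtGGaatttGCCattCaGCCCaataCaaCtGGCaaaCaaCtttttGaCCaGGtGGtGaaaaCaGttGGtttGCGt

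G and C made up 60.0% and 70.0% of these bases in VGF and FIBCD1, and 40.8%, 43.3% and 43.3% in KLHL5, NEK7 and RDX. In EFR3A, whose sequence is not printed, the same stretch had 48.3%. Over the whole transcript GC content was 70.6% in VGF and 67.1% in FIBCD1, above that of 99.7% and 98.2% of the 11205 protein-coding genes tested in both tables. It was 40.0% in KLHL5, 38.6% in RDX, 38.3% in EFR3A and 35.7% in NEK7, where only 14.2%, 8.44%, 7.57% and 1.75% of genes lay lower. The median gene had 49.7%. The split was as wide in the 3′ untranslated regions, with 65.7% and 64.5% GC in VGF and FIBCD1 against 29.9% to 33.3% in the other 4. NEK7, EFR3A and RDX also had long 3′ untranslated regions, of 2898, 2747 and 2428 bases against a median of 1047 bases, while VGF had 487, KLHL5 1143 and FIBCD1 1624 bases.

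Promoter windows from RefSeq (GRCh38.p14, 250 bases before to 50 after the transcript start) matched 4 of the 6 genes. They are shown because VGF and FIBCD1, and likewise KLHL5 and RDX, were picked for changes in the same directions. Capitals mark matches, on either strand, to the cyclic AMP response element core TGACG, the AP-1 sequence TGANTCA and the CCAAT box. The windows are chr7:101165520-101165819 for VGF (minus strand), chr9:130939198-130939497 for FIBCD1 (minus), chr4:39061982-39062281 for KLHL5 (plus) and chr11:110296565-110296864 for RDX (minus).
VGF: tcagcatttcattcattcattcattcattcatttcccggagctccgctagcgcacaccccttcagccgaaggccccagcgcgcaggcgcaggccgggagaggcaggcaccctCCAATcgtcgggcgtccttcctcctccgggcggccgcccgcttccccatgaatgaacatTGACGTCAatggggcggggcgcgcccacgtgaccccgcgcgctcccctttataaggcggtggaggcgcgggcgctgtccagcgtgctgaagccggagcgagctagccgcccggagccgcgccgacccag
FIBCD1: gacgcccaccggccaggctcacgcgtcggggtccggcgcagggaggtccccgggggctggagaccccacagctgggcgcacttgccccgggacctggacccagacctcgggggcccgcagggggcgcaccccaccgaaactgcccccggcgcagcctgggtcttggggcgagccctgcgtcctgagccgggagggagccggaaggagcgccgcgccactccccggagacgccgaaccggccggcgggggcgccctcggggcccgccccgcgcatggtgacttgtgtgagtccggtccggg
KLHL5: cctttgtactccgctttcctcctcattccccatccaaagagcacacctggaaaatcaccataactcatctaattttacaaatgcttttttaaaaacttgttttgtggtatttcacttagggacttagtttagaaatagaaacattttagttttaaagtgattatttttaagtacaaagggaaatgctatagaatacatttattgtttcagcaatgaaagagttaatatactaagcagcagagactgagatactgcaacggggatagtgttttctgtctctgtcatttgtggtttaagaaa
RDX: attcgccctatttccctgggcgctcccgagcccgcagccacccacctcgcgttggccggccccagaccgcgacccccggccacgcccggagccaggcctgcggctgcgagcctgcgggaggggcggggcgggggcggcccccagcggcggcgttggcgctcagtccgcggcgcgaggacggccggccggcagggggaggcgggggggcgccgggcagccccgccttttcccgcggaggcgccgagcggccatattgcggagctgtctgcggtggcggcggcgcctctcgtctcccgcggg

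VGF held the full palindromic cyclic AMP response element TGACGTCA, which begins 79 bases before the start and is made of 2 overlapping TGACG cores. It is the element bound by CREB and ATF family factors, and 1.85% of 35116 promoter windows of this length contain it. VGF also held a CCAAT box (34.6% of windows), a TATAAA match (11.5%), a CACGTG E-box that overlaps none of these (7.26%) and 4 matches to GGGCGG (45.0%). FIBCD1 and RDX held 1 and 3 matches to GGGCGG and none to the other 6 sequences searched, and KLHL5 held no match to any of the 7. TGACG alone occurs in 24.6% of windows and TGANTCA in 7.71%. The promoters did not share the split in composition: GC content was 67.7% in VGF and 78.3% in FIBCD1 but also 80.3% in RDX, against 33.3% in KLHL5 and a median of 58.7%. The KLHL5 window lies inside the GENCODE gene, downstream of its first annotated start, and which start SW480 uses was not tested. These are matches of letters, not binding sites.

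Expression is given in FPKM as deposited, that is fragments scaled to transcript length and to the size of the library. Changes are differences of mean log2(FPKM + 1), which understate the change of low genes. Genes were called at a limma Benjamini-Hochberg adjusted p under 0.05, fitted on all genes of a table with a mean of at least 1 FPKM. All 6 genes passed that filter in both tables. In none of the 6 did treated and control libraries overlap in either table; of all genes tested, 9.54% lay wholly higher and 15.1% wholly lower in shGPD1L, and 24.2% wholly higher and 17.6% wholly lower in OE. Read depth is unknown; total listed FPKM ran from 421714 to 444794 over the 12 libraries. All 7 epithelial marker genes were listed. Their summed level was 5065 to 5427 FPKM in shNC, 4203 to 4482 in shGPD1L, 3774 to 3882 in Vector and 4136 to 4267 in OE, so it too was lower in shGPD1L and higher in OE than in its control; its part in the results below was not tested. Of markers of other cells, 0 of 5 neuroendocrine and 0 of 4 endothelial genes were listed, 2 of 5 fibroblast genes summed to at most 2.31 FPKM, and 1 of 4 immune genes, CD68, was at 15.3 to 29.3 FPKM. GPD1L itself was at 8.60 ± 0.55 FPKM in shNC, 1.68 ± 0.494 in shGPD1L, 10.7 ± 0.449 in Vector and 22.4 ± 0.366 in OE (SD, n = 3 each). The library shGPD1L replicate 3 stood apart on the first principal component of its table, at 29.1 against -12.1 to 0.319 for the other 5. Knockdown changes of the 6 genes are therefore given with and without it. Those of other genes are given with it unless stated.

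VGF (ENSG00000128564), the neuropeptide precursor, is a gene of 2 exons on chromosome 7, 101162509 to 101165593, minus strand; positions here are GRCh38 from GENCODE 29, and all 6 genes are protein-coding. It had the highest FPKM of the 6 and the widest knockdown difference. It was listed at 48.6, 58.3 and 48.4 FPKM in shNC and at 101, 113 and 121 FPKM in shGPD1L. Every shGPD1L library lay at least 43.1 FPKM above every shNC library. In the other table it was at 79.2, 79.6 and 68.4 FPKM in Vector and 50.2, 57.4 and 59.2 FPKM in OE, and again the groups did not overlap. The log2 change was 1.10 (SE 0.106) in the knockdown, or 1.04 without shGPD1L replicate 3, and -0.44 (SE 0.0787) in the overexpression. The means were 51.8 ± 5.69 and 112 ± 10.0 FPKM in the first pair and 75.7 ± 6.32 and 55.6 ± 4.78 FPKM in the second (SD, n = 3 each), so VGF was 2.16 times the control when GPD1L was low and 0.734 times when it was high.

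FIBCD1 (ENSG00000130720), the chitin-binding receptor, has 7 exons on chromosome 9, 130902438 to 130939286, minus strand. It differed more from its control with overexpression. It was listed at 21.9, 19.9 and 20.5 FPKM in Vector and at 9.57, 11.3 and 12.8 FPKM in OE. The means of 20.7 ± 1.01 and 11.2 ± 1.60 FPKM (SD, n = 3 each) differ by -0.84 on the log2 scale (SE 0.0932). In shNC it was at 6.09, 6.75 and 5.90 FPKM and in shGPD1L at 9.61, 8.80 and 8.81 FPKM, 1.45 times higher by the means. No shGPD1L library fell within the shNC range, but the log2 change of 0.48 (SE 0.0882) did not pass the threshold (limma adjusted p = 0.0684); without shGPD1L replicate 3 it was 0.49.

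RDX (ENSG00000137710), the ERM protein, has 14 exons in its principal transcript and 24 annotated transcripts on chromosome 11, 109864295 to 110296722, minus strand. It too was called in 1 comparison only. It was listed at 7.09, 6.97 and 7.70 FPKM in Vector and at 12.0 FPKM in each of the 3 OE libraries, a log2 change of 0.66 (SE 0.0587) and 1.65 times the control. In the knockdown table it was at 13.9, 14.5 and 12.9 FPKM in shNC and at 10.1, 10.2 and 10.1 FPKM in shGPD1L. The groups did not overlap, and the log2 change of -0.40 (SE 0.0801; -0.40 also without shGPD1L replicate 3) missed the threshold (limma adjusted p = 0.0772). Its treated libraries were tight in both tables, with SDs of 0.0899 FPKM in shGPD1L and 0.0379 FPKM in OE.

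KLHL5 (ENSG00000109790), the BTB-kelch protein, has 12 exons on chromosome 4, 39045039 to 39126857, plus strand. It shares 448 exonic bases with the antisense gene AC079921.1, whose reads could be counted with it where strand was not kept. It changed by nearly the same amount in both directions. It was listed at 45.3, 39.9 and 41.6 FPKM in shNC and at 28.6, 29.7 and 29.8 FPKM in shGPD1L. It was at 37.3, 35.9 and 37.3 FPKM in Vector and at 54.6, 54.3 and 51.1 FPKM in OE. Neither pair of groups overlapped, and the closest libraries were 10.1 and 13.8 FPKM apart. The log2 change was -0.51 (SE 0.0794) with knockdown, or -0.52 without shGPD1L replicate 3, and 0.52 (SE 0.046) with overexpression, equal to 0.695 and 1.45 times the control.

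NEK7 (ENSG00000151414), the mitotic and inflammasome kinase, has 10 exons on chromosome 1, 198156963 to 198322420, plus strand. On the log2 scale it had the largest knockdown difference of the 4 genes that followed GPD1L. It was at 18.1, 16.2 and 18.3 FPKM in shNC and at 9.63, 9.78 and 11.1 FPKM in shGPD1L, the highest being replicate 3. In Vector it was at 16.7, 16.7 and 15.8 FPKM and in OE at 23.5, 20.4 and 21.9 FPKM. Groups were separate in both tables. The log2 change was -0.73 (SE 0.0914) in the knockdown, or -0.79 without replicate 3, and 0.40 (SE 0.0615) in the overexpression.

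EFR3A (ENSG00000132294), the PI4KA anchor, has 23 exons on chromosome 8, 131904088 to 132013642, plus strand. It was the most one-sided of these 4. It was at 15.9, 16.3 and 16.6 FPKM in shNC and at 10.6, 11.0 and 11.3 FPKM in shGPD1L, a log2 change of -0.53 (SE 0.0751; -0.55 without replicate 3). In Vector it was at 20.1, 18.9 and 19.5 FPKM and in OE at 22.5, 21.3 and 22.3 FPKM. The OE libraries lay above the Vector libraries by as little as 1.16 FPKM, and the log2 change was 0.17 (SE 0.0502), 1.13 times the control.

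**Figure D1:**
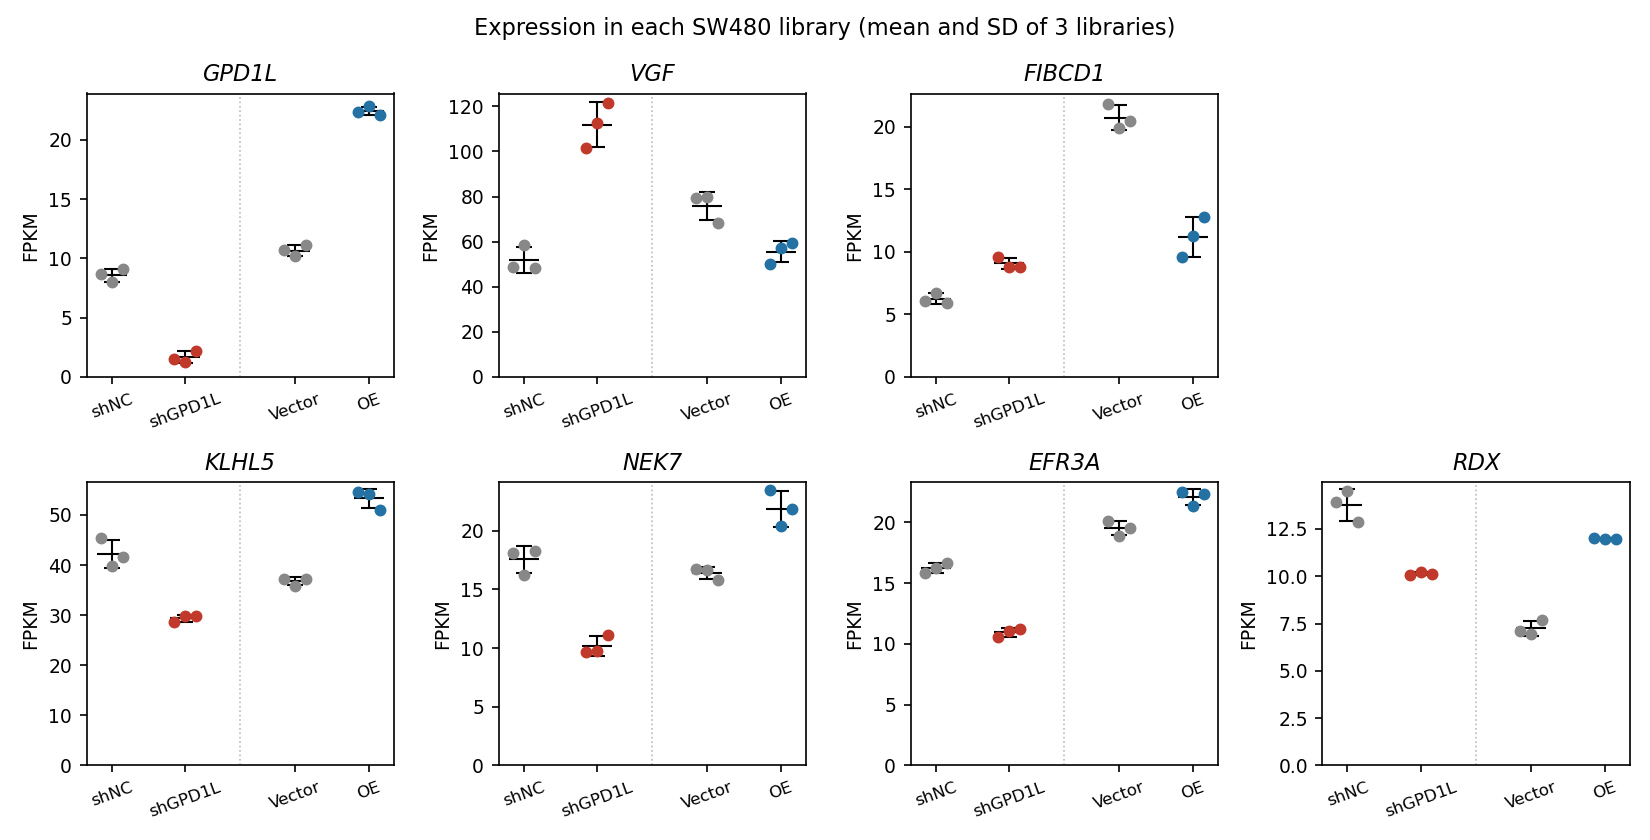
FPKM (y axis) of GPD1L and the 6 genes in each of the 12 libraries, by group (x axis), with the mean and SD of 3 libraries; the dotted line separates the 2 tables. VGF runs from 101 to 121 FPKM in shGPD1L against 48.4 to 58.3 in shNC, and FIBCD1 is lower in shNC than in Vector by more than it differs within either table.

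These values chose the genes, so they are a description and no test of the pattern. In the fit used here 4 of the 6 were called in the knockdown, where 0.592% of 12156 genes were called, and 6 of 6 in the overexpression, where 22.4% of 12208 were. VGF, KLHL5, NEK7 and EFR3A were thus called in both, and are among the 18 genes (0.161% of 11208 annotated genes tested in both tables) that were called in opposite directions. The same 4 were called in both with pseudocounts of 0.1 or 0.5, no filter or a filter at 5 FPKM. Fewer were with other settings: 3 with library totals set equal, and 2 with median-of-ratios scaling, quantile normalization or no trend. With the GC trend removed 1 was called in both, and with the replicate block 0. Another 12 genes (0.107%) were called in the same direction. Nearest the threshold on the called side were KLHL5 in the knockdown (limma adjusted p = 0.0458) and EFR3A in the overexpression (0.0457), and nearest on the other side were FIBCD1 and RDX. Without shGPD1L replicate 3, 6 of 6 were called in both tables, among 124 opposite calls; without shNC replicate 1, 2 or 3 or shGPD1L replicate 2, none was called in the knockdown by limma, and 0 to 7 genes of the whole table were (1126 to 2138 at an unadjusted p under 0.05). Without shGPD1L replicate 1 only VGF was called there, and without any 1 library of the other table EFR3A was not called.

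Ranked by the smaller of its 2 log2 changes, the 18 genes are led by GPD1L; KLHL5 is 7th, directly after the histone gene HIST2H2AA3 (-0.58 and 0.53), VGF 9th, NEK7 10th and EFR3A 18th and last. Between KLHL5 and VGF stands the collagenase gene MMP1 (-0.63 and 0.45), after NEK7 the death receptor gene FAS (-0.80 and 0.37), and before EFR3A the kinase gene UHMK1 (-0.49 and 0.20). HIST2H2AA3 has a near-identical copy, HIST2H2AA4, between which reads may be split. VGF is 1 of only 2 among the 18 that were higher in shGPD1L and lower in OE, the other being the transcriptional inhibitor ID3 (0.71 and -0.57). Groups that do not overlap in either table are more common than calls: 245 genes (2.19%) were higher in every shGPD1L and lower in every OE library than in any control, as VGF and FIBCD1 were, and 639 (5.7%) showed the reverse, as KLHL5, NEK7, EFR3A and RDX did. In 447 genes (3.99%) both comparisons separated in the same direction.

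**Figure D2:**
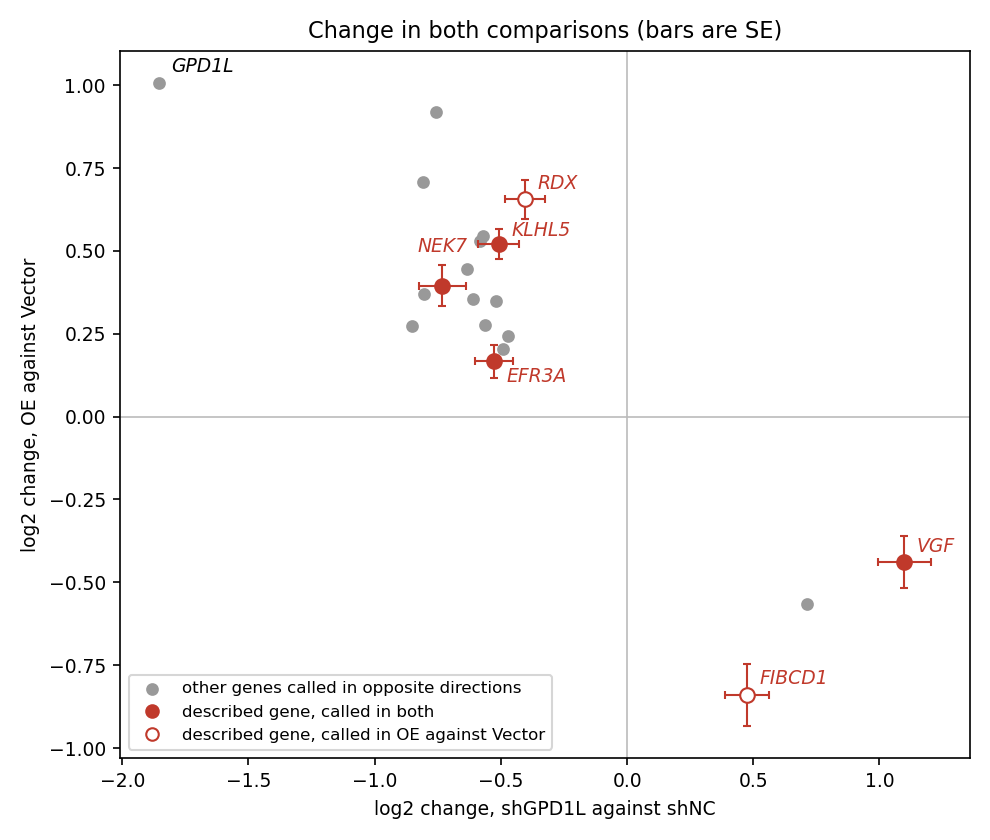
Log2 change in shGPD1L against shNC (x axis) and in OE against Vector (y axis) for the 6 genes (red, bars are SE; open where not called in the knockdown) and the other genes called in opposite directions (grey). Most points lie at upper left with GPD1L, while VGF, FIBCD1 and ID3 lie at lower right.

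The split in base composition ran through the whole transcriptome. In the decile of genes with the lowest transcript GC (up to 39.0%), which holds NEK7, EFR3A and RDX, the median log2 change was -0.12 in the knockdown and 0.15 in the overexpression. In the decile with the highest GC (62.7% and above), which holds VGF and FIBCD1, it was 0.06 and -0.08. Library by library, the low-GC median was -0.11, -0.07 and -0.17 in shGPD1L replicates 1 to 3 relative to shNC, and 0.20, 0.11 and 0.11 in OE relative to Vector. The medians of the shNC and Vector libraries themselves stayed within -0.05 to 0.04 there. In the high-GC decile the median was 0.08, 0.08 and 0.06 in the shGPD1L libraries against -0.03 to 0.02 in shNC. There the OE libraries, at -0.16, -0.07 and -0.0039, overlapped the Vector libraries, at 0.04, 0.05 and -0.08. Among the 639 genes that separated downward in shGPD1L and upward in OE the median GC was 41.9%, and among the 245 of the reverse kind it was 56.9%.

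The 6 genes lay further from 0 than the median of their decile, by little for EFR3A in the overexpression. Because they were picked for these changes, this follows in part from the choice and is no test. Net of the median of its own decile, VGF kept 1.04 and -0.36 log2 units, FIBCD1 0.42 and -0.76, KLHL5 -0.41 and 0.42, NEK7 -0.61 and 0.25, and RDX -0.29 and 0.51 in the knockdown and the overexpression. EFR3A kept -0.41 in the knockdown but 0.02 in the overexpression, where 43.1% of the genes in its decile had a difference as large. For RDX that share was 5.62% in the knockdown and 0.35% in the overexpression, and for VGF 0.176% and 7.79%. It was 2.9% and 1.05% for FIBCD1, 2.11% and 0.7% for KLHL5, and 0.791% and 4.46% for NEK7. With the GC trend of each library removed, VGF was the 1 gene of the 6 called in the knockdown and EFR3A (log2 change 0.04) the 1 not called in the overexpression, and 8 genes in all were called in opposite directions.

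**Figure D3:**
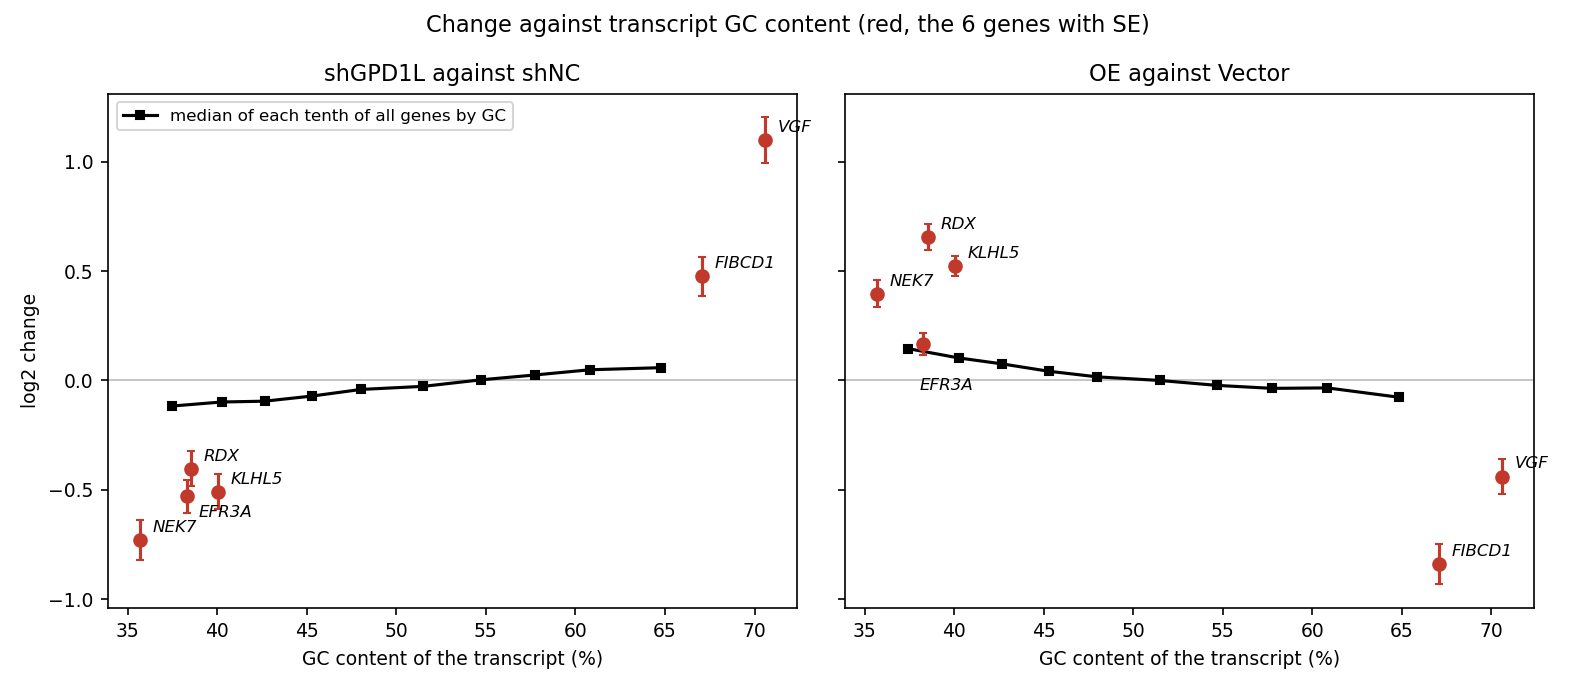
Log2 change (y axis) against GC content of the principal transcript (x axis) for the 6 genes (red, bars are SE), with the median change of each decile of all tested genes by GC (black). The line slopes upward in the knockdown and downward in the overexpression, and EFR3A lies on it in the overexpression.

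Levels over all 4 groups show how far the control lines themselves differ. Whether both tables share 1 normalization is not known, and the levels are set side by side without a test. GPD1L was lowest to highest in the order shGPD1L, shNC, Vector, OE, and EFR3A was the 1 gene of the 6 to follow it, at 11.0 ± 0.354, 16.3 ± 0.386, 19.5 ± 0.613 and 22.1 ± 0.657 FPKM (SD, n = 3 each) with no overlap between neighbours. NEK7 stood at 10.2 ± 0.829, 17.6 ± 1.14, 16.4 ± 0.506 and 21.9 ± 1.53 FPKM in that order, where shNC and Vector overlapped. KLHL5 stood at 29.4 ± 0.682, 42.3 ± 2.80, 36.8 ± 0.825 and 53.3 ± 1.94 FPKM, with Vector below shNC.

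For the other 3 genes the control lines were further apart or in another order. FIBCD1 stood at 9.07 ± 0.468, 6.25 ± 0.445, 20.7 ± 1.01 and 11.2 ± 1.60 FPKM. It was 3.32 times as high in Vector as in shNC, a gap of 1.59 log2 units that only 0.286% of 11208 genes reached, and its OE and shGPD1L ranges overlapped although GPD1L was lowest in the latter. RDX stood at 10.1 ± 0.0899, 13.8 ± 0.835, 7.25 ± 0.390 and 12.0 ± 0.0379 FPKM. Vector, at 0.527 times shNC, was the lowest of the 4 groups, a gap that 3.1% of genes reached. VGF stood at 112 ± 10.0, 51.8 ± 5.69, 75.7 ± 6.32 and 55.6 ± 4.78 FPKM, and its OE libraries overlapped those of shNC. The gap between controls was reached by 10.6% of genes for VGF, 40.9% for EFR3A, 52.1% for KLHL5 and 75.2% for NEK7.

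The genes whose values ran most like each of the 6 over the 12 libraries were found by Pearson's r, each table centred on its own mean. The search covered the same 11208 genes with the 6 themselves left out. These correlations describe 2 contrasts as much as 12 libraries. VGF was closest to CALR (r = 0.98) and PDIA4 (0.97), which encode endoplasmic reticulum chaperones, and to IGFBP4 (0.96), an insulin-like growth factor binding protein. FIBCD1 was closest to MYORG (0.98) and to the heat shock genes HSPA1B (0.98) and HSPA1A (0.97), near-identical paralogs. KLHL5 was closest to the asparagine synthetase gene ASNS (0.98), to CADPS (0.98), a factor of dense-core vesicle release, and to ECPAS (0.98), a proteasome-binding protein.

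NEK7 was closest to the elongation factor gene ELL2 (r = 0.98), the helicase gene ASCC3 (0.98) and GPD1L itself (0.98). EFR3A was closest to TMEM245 (0.99), UHMK1 (0.98) and SLC35F5 (0.97), the last 2 of which are among the 18 opposite calls. RDX was closest to the Integrator subunit gene INTS10 (0.97), the kinase gene PKN2 (0.96) and the RNA helicase gene DDX21 (0.96). With GPD1L, r was 0.96 for EFR3A, 0.94 for KLHL5 and 0.84 for RDX, and -0.95 and -0.81 for VGF and FIBCD1. The genes were picked for opposite changes in these same libraries. A large r with GPD1L, of either sign, therefore follows from the choice and is no test of the pattern.

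Genes that work with the 6 proteins, or only share a family, a domain or a regulator with them, were taken from 8 lists. All are called partners here. Of 192 partner genes, 117 were tested in each table. In the knockdown 1 was called higher and 1 lower (0.855% of the partners each, against 0.115% and 0.477% of all genes), with 24 that reached an unadjusted limma p of 0.05, as did 1980 of all genes. With overexpression 15 partners rose and 13 fell (12.8% and 11.1%, against 12.2% and 10.3% of all genes). The 1 partner called in both tables, PER1, moved the same way in each. With all libraries kept, 0 of the 115 partners tested in both tables were called in opposite directions. Without shGPD1L replicate 3, 12 partners were called in the knockdown. Among them were SDC1 and CADPS, each called the other way in OE.

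Of the ERM list, 0 of 16 tested genes were called by limma in the knockdown (2 at unadjusted p under 0.05) and 3 rose and 3 fell of 15 in the overexpression. Ezrin (EZR), the main ERM protein of epithelium, was at 211 and 205 FPKM in shNC and shGPD1L (adjusted p = 0.822) and rose from 142 to 162 FPKM with overexpression (log2 change 0.19, adjusted p = 0.0127; 0.0503 without Vector replicate 2). Moesin (MSN) was near the floor at 0.244 to 0.832 FPKM in the knockdown libraries. The genes of the ERM-bound surface proteins PODXL and SDC1 fell in OE (log2 change -0.39 each).

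Of the PI4KA list, 0 of 17 genes were called by limma in the knockdown (3 at unadjusted p under 0.05) and 2 of 17 in OE, both higher: TMEM150A, a membrane partner of the kinase complex (log2 change 0.25, adjusted p = 0.0491), and the lipid exchanger OSBPL8 (0.18, adjusted p = 0.0445). Both calls were lost in 5 of 6 fits that left out 1 library (limma adjusted p up to 0.119 and 0.109; kept only without OE replicate 1 for TMEM150A and Vector replicate 1 for OSBPL8), and with the GC trend removed OSBPL8 was at 0.02 (adjusted p = 0.695). PI4KA, the enzyme that EFR3A recruits, was at 16.1 and 18.1 FPKM in shNC and shGPD1L and at 17.3 FPKM in both Vector and OE (adjusted p = 0.514 and 0.994). The scaffold TTC7A changed by 0.10 and -0.13 (adjusted p = 0.521 and 0.209).

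Of the NEK kinases and mitotic partners, 0 of 12 were called by limma in the knockdown (2 at unadjusted p under 0.05), and 2 rose and 2 fell in OE. NEK3 rose from 7.35 to 11.2 FPKM (log2 change 0.55, adjusted p = 0.000846) and NEK1 by 0.24, a call lost when any 1 library was left out (limma adjusted p from 0.0542 to 0.116) and with the GC trend removed (0.12, adjusted p = 0.18). By contrast NEK6, the closest relative of NEK7, fell by 0.22 on the log2 scale and ANKS6 by 0.27; the NEK6 call was lost without Vector replicate 1 (adjusted p = 0.0501). NEK9, which activates NEK6 and NEK7 in mitosis, changed by 0.00 and 0.06 (adjusted p = 0.99 and 0.498). Of 6 inflammasome genes 0 were called by limma in the knockdown (also 0 at unadjusted p under 0.05) and 1 in OE. PYCARD, the adaptor that joins NLRP3 to caspase-1, was at 20.1, 21.8 and 16.8 FPKM in Vector and at 9.41, 9.85 and 10.8 FPKM in OE, a log2 change of -0.89 (SE 0.0949, adjusted p = 0.000927). In shNC it was at 9.24 ± 1.67 FPKM (SD, n = 3), so like FIBCD1 it was higher in Vector than in the other 3 groups.

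Of the BTB-kelch proteins and the CUL3 core, 1 of 38 was called in the knockdown (8 at unadjusted limma p under 0.05) and 5 rose and 5 fell in OE. The 1 was ENC1, an actin-binding BTB-kelch protein, which was at 71.3, 64.4 and 70.3 FPKM in shNC and 41.7, 41.9 and 45.1 FPKM in shGPD1L (log2 change -0.67, SE 0.0794, adjusted p = 0.0299). Its call was lost without any of the shNC libraries or without shGPD1L replicate 1 or 2, with adjusted p-values from 0.0772 to 0.203. In OE it changed by -0.10 (adjusted p = 0.105). KLHL35 (log2 change 0.63) and KLHL24 (0.48) rose and KLHL25 (-0.38) fell in OE, all 3 at low levels of under 6 FPKM; the KLHL25 call was lost without Vector replicate 1 or 2 or OE replicate 1 (adjusted p up to 0.0612). CUL3 itself changed by -0.14 and 0.11 (adjusted p = 0.469 and 0.326).

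Of the dense-core granule list, 0 of 11 genes were called by limma in the knockdown (3 at unadjusted p under 0.05) and 2 rose and 1 fell of 13 in OE. The granin SCG2 was at 0.156 to 0.636 FPKM and below the filter. CADPS rose in OE from 23.0 to 28.9 FPKM (log2 change 0.32, adjusted p = 0.00316) and was at -0.36 in the knockdown (adjusted p = 0.093; called without shGPD1L replicate 3), opposite in sign to VGF. The vesicle fusion gene VAMP2 rose by 0.19 and the peptide-amidating enzyme gene PAM fell by 0.29 on the log2 scale in OE. The VAMP2 call was lost when any 1 library was left out (limma adjusted p from 0.0584 to 0.107), and that of PAM without Vector replicate 1 or 3 or OE replicate 2 (up to 0.0685).

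Of 11 CREB factors and targets, 1 was called in each table. In the knockdown 5 were at an unadjusted limma p under 0.05, as were 16.3% of all genes. PER1, a circadian repressor with response elements for CREB, rose from 10.7 to 18.0 FPKM in shGPD1L (log2 change 0.70, adjusted p = 0.0337) and from 6.71 to 13.0 FPKM in OE (0.86, adjusted p = 0.000242). The knockdown call was lost without any of the shNC libraries or without shGPD1L replicate 1 or 2 (adjusted p from 0.0772 to 0.203). The median of the list was 0.27 in the knockdown against -0.04 for all genes, and its mean lay at 0.47 in shGPD1L replicate 3 against 0.19 and 0.07 in replicates 1 and 2. Directions were mixed, from -0.28 for CREM, which is 1 of the 5, to 0.955 for NR4A1, with CREB1 at -0.04. In OE the median was 0.03 against 0.02 for all genes. Of the fibrinogen-domain and chitin-binding genes, 6 and 5 were tested. Limma called 0 in the knockdown (1 at unadjusted p under 0.05). The knockdown median of these genes was nevertheless -0.29, opposite in sign to FIBCD1 (0.48). Averaged within each library, they stood at -0.37, -0.34 and -0.62 for the shGPD1L libraries and at -0.01 to 0.01 for shNC. These averages and the knockdown median include 1 gene tested only in the knockdown, which lay below the other 5. Those 5 changed by -0.43 to 0.04 there. The OE median, taken on the same 5, was -0.05. Whether this list or the CREB list shifted as a whole was not tested. In OE the lysosomal protein gene CHID1 fell (log2 change -0.34, adjusted p = 0.0197; lost without Vector replicate 1 or OE replicate 2, up to 0.0612).

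**Figure D4:**
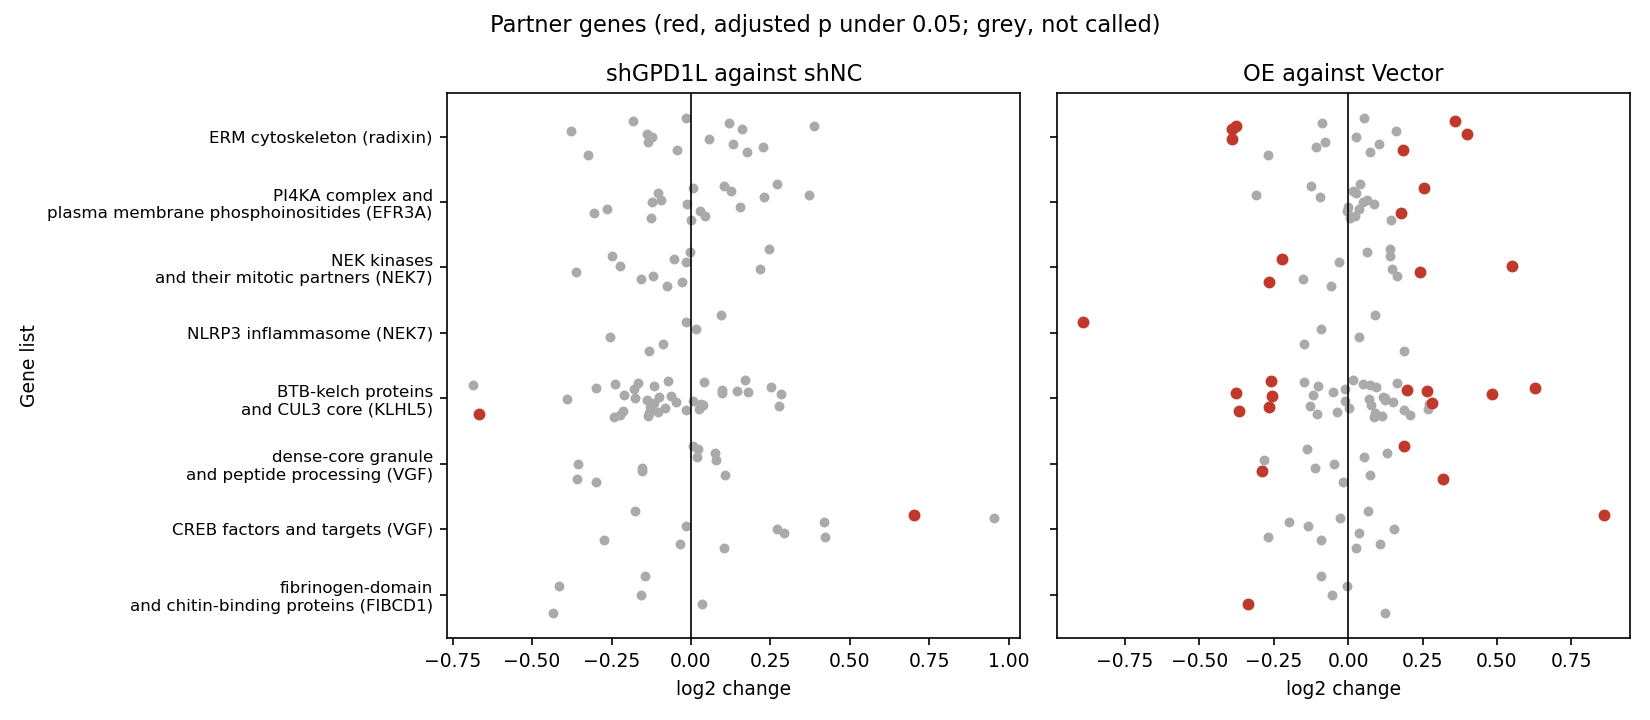
Log2 change (x axis) of each partner gene in both comparisons, by list (y axis); red points passed an adjusted p of 0.05 and grey points did not. In the overexpression red points lie on both sides of 0 in 4 of the 8 lists, and PYCARD at -0.89 and PER1 at 0.86 lie furthest out.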

How the data were processed

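Poly(A) RNA from 12 SW480 libraries was sequenced. The authors deposited FPKM in 1 table per comparison. The submitters' processing notes name GRCh38 and the tools StringTie, HISAT2 and DESeq2, with neither version nor role; strandedness and any filter were not stated. Libraries were grouped by title; genotype entries such as shGPD2L and shGPD3L for later replicates were read as a numbering slip. Gene identifiers were matched to GENCODE 29, which gave positions, the principal transcript and its GC content.

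Each table was fitted separately on log2(FPKM + 1) with limma 3.58.1 (R 4.3.3, intensity trend), for genes averaging 1 FPKM or more, and called at a Benjamini-Hochberg adjusted p under 0.05. The tests were checked on simulated data with independent normal noise, which held no outlying library and no GC trend. Figures were drawn with matplotlib 3.10.9. The 6 genes and all partner lists were chosen with earlier results of these data known.

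Named genes are the 6, GPD1L, the 3 called genes of each partner list and comparison with the largest log2 change, and partners called in both. Also named are 11 partners fixed by role (5 of which were listed in neither table or only below the filter). The 3 genes outside the 6 most correlated with each of them, and the neighbours in rank among opposite calls, complete the set. ID3, CREM, NR4A1 and CREB1 were named after their values were seen. Of the genes that the rule names, 1 is not reported here. Alternatives were pseudocounts of 0.1 and 0.5, no filter or a filter at 5 FPKM, 3 scalings, no trend, a replicate block, removal of each library's GC trend (lowess, span 0.3), and leaving out each library. DESeq2 was not run, because the values are not counts.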

Additional observations from a re-analysis of the deposited data

How the results depend on the processing

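The log2 changes of the 6 genes kept their sign under all 17 alternatives of each comparison. That of VGF in the knockdown ran from 1.00 to 1.19, and that of EFR3A in the overexpression from 0.04 (GC trend removed) to 0.22 (equal library totals). Which of them were called depended on the setting. The number of genes called in the knockdown, 72, was 25 with quantile normalization (32.0% higher, against 19.4%), 41 with the GC trend removed, and 0 to 609 with 1 library left out (limma; at least 1126 at an unadjusted p under 0.05). The 609 are without shGPD1L replicate 3. The 2740 of the overexpression became 1550 to 1980 with 1 library left out, the lowest without Vector replicate 2, and with equal library totals 3418 were called, 71.4% of them higher against 54.2%. The 18 opposite calls became 9 with median-of-ratios scaling, 5 with quantile normalization, 8 without the trend, 8 with the GC trend removed and 0 to 124 with 1 library left out. The 2 partner genes called in the knockdown became 1 with quantile normalization and 0 to 12 with 1 library left out (13 to 37 at an unadjusted p under 0.05), and the 28 of the overexpression 16 to 21. The cause was not tested.

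Replicate numbers did not pair the libraries: deviations from the group means of same-numbered libraries correlated at -0.02, -0.18 and -0.16 in the knockdown and 0.02, -0.06 and -0.04 in the overexpression, and not every library correlated best with its own number. With the replicate block, 3 genes and 0 partners (18 at an unadjusted limma p under 0.05) were called in the knockdown, 2021 genes in the overexpression and 1 in opposite directions; with the replicate block and the GC trend removed, these were 5, 0 (16 unadjusted), 2348 and 1.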

Other observations

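After removal of group means, r between the 6 genes over the 12 libraries ranged from -0.54 (FIBCD1 with NEK7) and -0.53 (FIBCD1 with KLHL5) to 0.53 (NEK7 with EFR3A) and 0.49 (VGF with FIBCD1). Genes that differ from their controls in the same directions did not all vary together: r was 0.38 for KLHL5 with NEK7, -0.45 for NEK7 with RDX and -0.08 for EFR3A with RDX. With 3 libraries in each group, these values share few degrees of freedom and describe these libraries only.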
